A study of Mus musculus with 10 samples.

Results

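The GATA family of transcription factors and their Fog cofactors were followed through the chemical conversion of mouse fibroblasts into cells resembling extraembryonic endoderm (XEN). The 8 genes described are *Gata1*, *Gata2*, *Gata3*, *Gata4*, *Gata5*, *Gata6*, *Zfpm1* and *Zfpm2*, chosen by name, and all 8 are among the 23197 genes of the table. Embryonic fibroblasts of ICR mice (MEFs, a mixed population of connective tissue cells) were sampled untreated on day 0 (d0) and during treatment with C6FAE, a cocktail of CHIR99021 (a GSK3 inhibitor), an ALK5 inhibitor abbreviated 6, Forskolin (a cAMP agonist), AM580 (a retinoic acid agonist) and EPZ004777 (a Dot1L inhibitor). Single cells were picked by hand at 10 time points and fall into 12 groups: d0, d1, d2, d3, d4, d5, d6p, d8, d8c, d12, d12c and d20, where d8c and d12c cells came from picked colonies and the p of d6p is not explained. The groups share the fibroblast source, and every group after d0 shares the cocktail. The sample labels and the study's results name C6FAE, while its methods list a reprogramming medium that also holds valproic acid. The labels are followed here.

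Cells with at least 4000 detected genes were used, which kept 670 of 808 cells, from 20 in d8c to 86 in d6p. A gene's level in a cell is its count of unique molecular identifiers (UMIs, each a label of 1 captured RNA molecule) scaled to 1000000 UMIs per cell, written CPM, and differences are of the mean log2(CPM + 1) over cells. Depth differed between groups, with a median of 344196 UMIs per cell at d0, 768565 at d12 and 195480 at d20, so the share of cells in which a gene had a UMI was taken again after every cell was thinned to 50000 UMIs, with 23 shallower cells left out. The series lists 10 sequenced batches, but no cell could be assigned to one. The whole table therefore counts as 1 sample, cells are not replicates, and no test was possible. Exact Poisson and Clopper-Pearson intervals, at 95%, cover counting error only. Running numbers in the cell names divide several time points into ranges of up to 48 and above 48, whose meaning is not stated and which may stand for libraries.

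The cell names give no cell type, so markers of fibroblasts and of XEN cells were summed per cell. All 12 fibroblast markers had UMIs at d0, with a median summed level of 3461 CPM per cell, against 50.2 CPM at d20. The 12 XEN markers summed to a median of 214 CPM at d0 and 3909 CPM at d20. Of the mean sum of 4117 CPM at d20, *Cited1* held 2027 and *Sox17* 982 CPM, so the sum does not speak for each marker. The d12c cells fell into cells numbered 1 to 24, which kept a median of 3887 CPM of fibroblast markers, and cells numbered 49 to 96 with 40.1 CPM, and these are given separately below. Gene UMIs per spike-in (ERCC) UMI were 31.9 at d0, 33.6 at d4, 7.80 at d12 and 4.56 at d20, a shift of -2.81 on the log2 scale from d0 to d20 over all genes together, so a level per spike-in runs lower at late times than a level in CPM. Levels per spike-in UMI pool the UMIs over the cells of a group, while mean CPM is a mean over cells.

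GATA factors bind the short DNA word GATA through a pair of zinc fingers. *Gata1*, *Gata2* and *Gata3* are known from blood, with *Gata2* and *Gata3* also acting in the trophoblast, whereas *Gata4*, *Gata5* and *Gata6* act in heart and endoderm, and *Gata4* and *Gata6* are master genes of the extraembryonic endoderm. *Zfpm1* and *Zfpm2* encode Fog1 and Fog2, which bind the amino-terminal zinc finger of GATA proteins and bring the NuRD and CtBP repressor complexes.

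The highest levels of the family fell at different times. *Gata2* and *Gata3* had their highest mean CPM on d4, when *Gata4* and *Gata5* were near 0, although the mean log2 level of *Gata2* was highest on d3 and the pooled UMIs put *Gata2* highest on d5 and *Gata3* on d8. *Gata2* was not confined to early days. Its mean log2 level was 2.29 in the d12c cells numbered 49 to 96 and 2.32 at d4. *Gata4*, *Gata5* and *Gata6* had their highest mean CPM in d12c or d20 cells. *Gata6* was found from d0 on, and per spike-in UMI its d12c level was 1.18-fold over d0. *Gata1* was not detected, *Zfpm1* was sparse throughout with its highest mean CPM at d20 (per spike-in UMI it was below d0), and *Zfpm2* was found mainly in cells of d0 to d2. The mean of *Zfpm2* at d4 was 2.08 CPM, from 5 cells. The strip plot of all 670 cells shows this order.

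**Figure D1:**
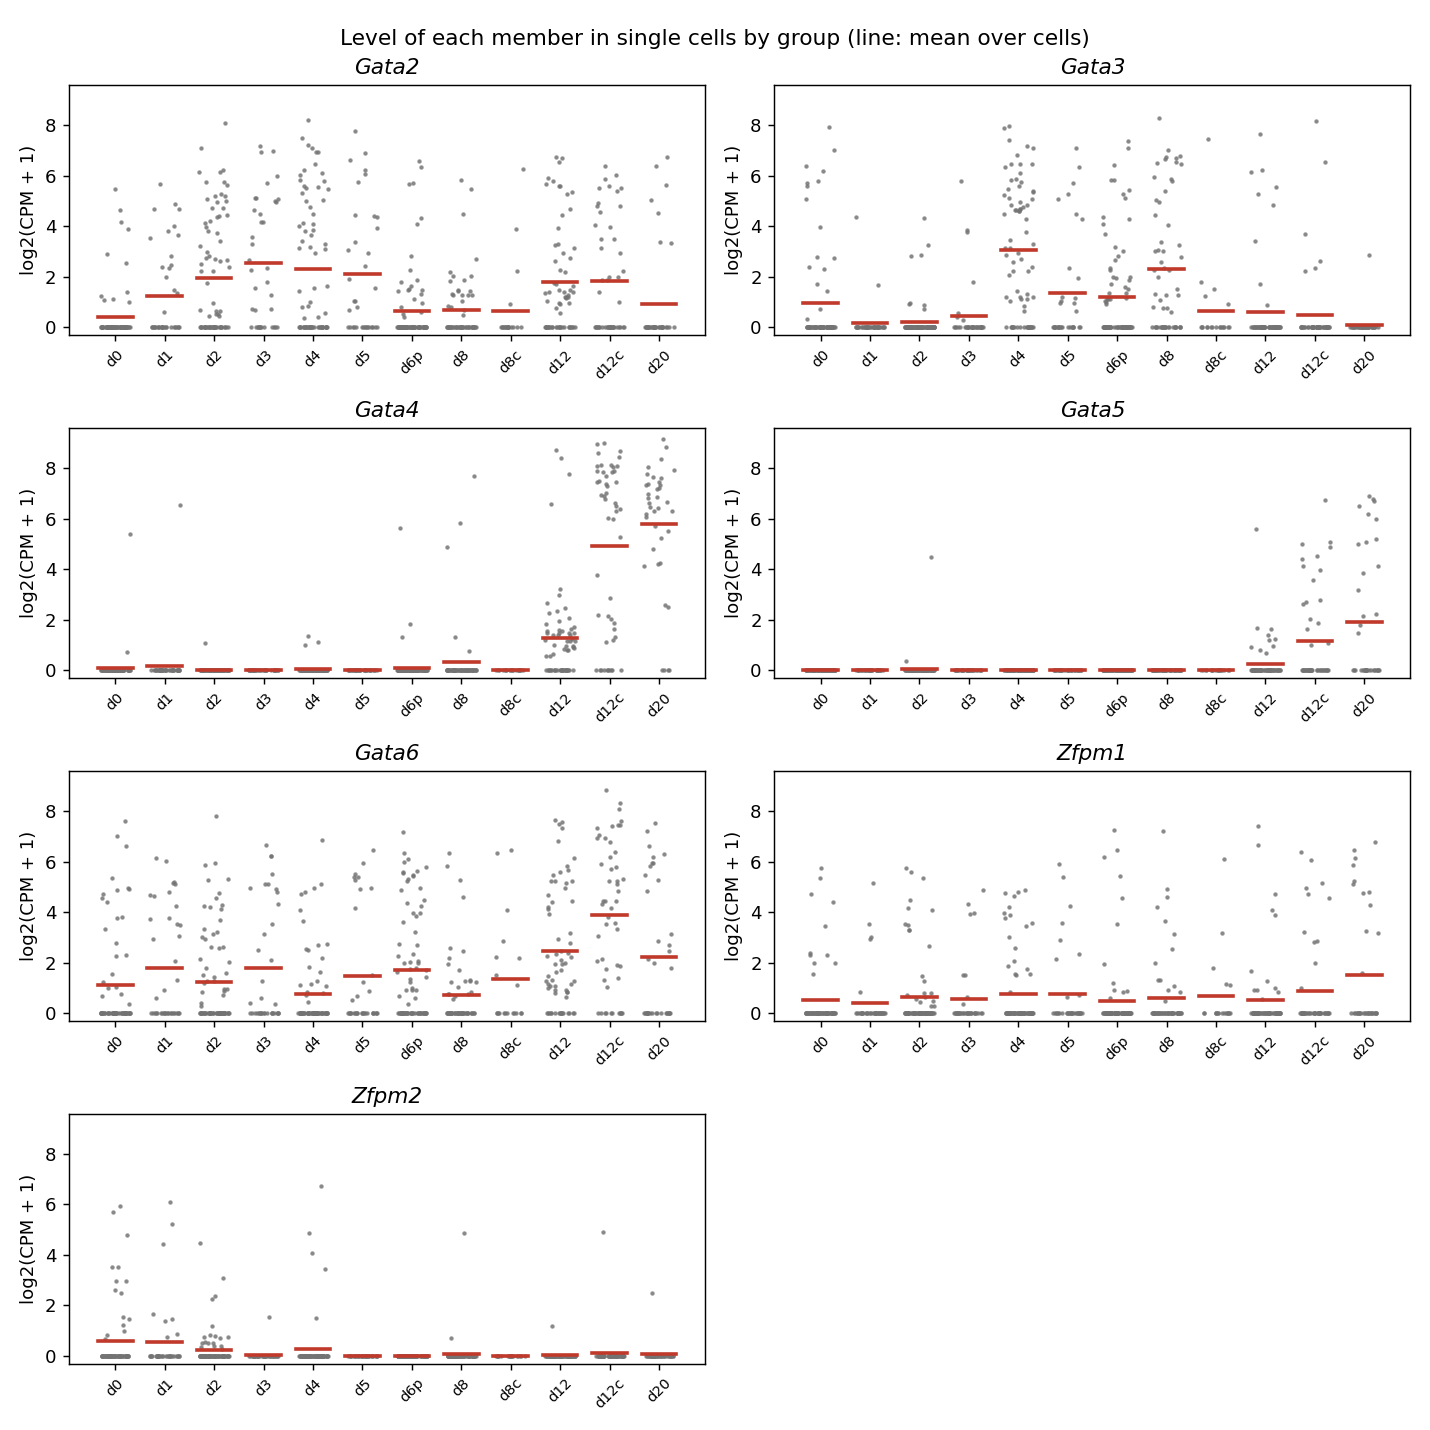
Level of 7 genes in each of 670 cells as log2(CPM + 1) on the vertical axis, by group on the horizontal axis. Each point is a cell and each red line the mean over the cells of a group. *Gata4* rises from a mean of 0.085 at d0 to 5.78 at d20, while *Gata3* has its highest mean, 3.05, at d4.

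*Gata1* (ENSMUSG00000031162, chromosome X from 7536386 to 7555197 on the minus strand of mm9) encodes the erythroid and megakaryocytic GATA factor. It had 0 UMIs in all 808 deposited cells. Where 0 cells had a UMI, the limit of the share is set at 3 cells of the group, here and below. This allows a share of up to 4.17% at d0, 3.49% in the 86 d6p cells and 7.89% at d20. Of the 12 blood markers, *Tal1*, *Gfi1b*, *Spi1*, *Hbb-b1* and *Hba-a1* were at 0 in d0 and in d20 cells. The blood marker that was measured in both the d12 and the d20 comparison with d0 was *Runx1*, which is also expressed outside blood.

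*Gata2* (ENSMUSG00000015053, chromosome 6 from 88143885 to 88157024, plus strand) keeps blood stem and progenitor cells and acts in trophoblast. It had 5312 UMIs in 279 of the 670 cells. Its mean was 1.62 CPM at d0, 5.11 at d1, 14.98 at d2, 20.8 at d3, 24.5 at d4 and 20.5 at d5. It was then 3.98 CPM at d6p, 2.56 at d8, 4.71 at d8c, 11.6 at d12, 11.2 at d12c and 8.22 at d20. The course of the mean thus had a broad early maximum from d2 to d5, a low on d6p and d8, and a lower second level on d12 in CPM. In the d12c cells numbered 49 to 96 the mean was 13.4 CPM. Their median was 3.30 CPM, against 0.733 CPM at d4. Per spike-in UMI, *Gata2* was 2.81-fold over d0 at d4 but 0.546 of d0 at d12 and 0.236 at d20. These ratios pool UMIs over cells. In CPM, d12 was 2.23-fold over d0 by pooled UMIs and 7.16-fold by the mean over cells. The direction of its later values against d0 therefore rests on the scale and on the pooling.

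The share of cells with a *Gata2* UMI also rose early and was low at d6p, but at d12 it lay among the values of d2 to d5. It was 15.3% at d0 (11 of 72 cells, 7.88% to 25.7%), 54.2% at d2, 65.8% at d3 (25 of 38, 48.7% to 80.4%), 54.5% at d4 and 55.6% at d5. It was 25.6% at d6p (22 of 86, 16.8% to 36.1%), 35.5% at d8 (22 of 62, 23.7% to 48.7%), 61.2% at d12 (41 of 67, 48.5% to 72.9%) and 18.4% at d20 (7 of 38, 7.74% to 34.3%). The intervals of d2 to d5, d12 and d12c overlap, so no order can be read among them, while each of them lies above that of d0. After thinning, the shares were 5.63% at d0, 31.7% at d2, 32.9% at d4, 7.41% at d6p, 24.2% at d12 and 16.7% at d20, and the d20 interval (6.37% to 32.8%) overlaps both d0 and d4.

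Cells within a group differed widely. At d4, *Gata2* ranged from 0 to 296 CPM with a median of 0.733 CPM, and 21 of 77 cells reached 20 CPM. At d0 the lowest and the median cell were at 0 and the highest at 44.0 CPM. A single deep cell held 75% of the 216 *Gata2* UMIs at d0, so the UMIs pooled over cells gave 5.37 CPM, and d4 over d0 was 2.66-fold (2.29 to 3.11) by pooled UMIs against 15.1-fold by the mean over cells.

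The running numbers separated *Gata2* within days. At d2, 68.9% of cells numbered up to 48 (53.4% to 81.8%) and 36.8% of those above (21.8% to 54.0%) had a UMI, with means of 24.97 and 3.15 CPM, and the intervals just overlap. At d4 the order was opposite, with 32.5% (18.6% to 49.1%) and 78.4% (61.8% to 90.2%) and means of 2.997 and 47.7 CPM. Thinned shares were 44.4% and 16.2% at d2, and 7.69% and 61.8% at d4. The range with more *Gata2* had the lower median depth on both days, 721613 against 1254580 UMIs at d2 and 322066 against 778218 at d4. The part of depth in these gaps was not tested. The difference between d4 and d0 was 1.91 over all cells, 0.37 with the lower numbers alone and 3.53 with the higher numbers alone. The day and the number range therefore cannot be told apart for *Gata2*.

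The 250 bases before the start sites of *Gata2* and *Gata3*, with their highest mean CPM on d4, and of the late gene *Gata5* are shown for comparison. They are as given by RefSeq on GRCm38.p6, a later build than the mm9 of the counts. RefSeq windows were matched for 5 of the 8 genes, and *Gata4*, *Gata6* and *Zfpm2* had no entry. Capitals mark the GC box GGGCGG, the word bound by Sp1. The coordinates are chr6:88193641-88193890 and chr6:88198414-88198663 on the plus strand for *Gata2*, and chr2:9878601-9878850 and chr2:180334680-180334929 on the minus strand for *Gata3* and *Gata5*.
*Gata2*, first start: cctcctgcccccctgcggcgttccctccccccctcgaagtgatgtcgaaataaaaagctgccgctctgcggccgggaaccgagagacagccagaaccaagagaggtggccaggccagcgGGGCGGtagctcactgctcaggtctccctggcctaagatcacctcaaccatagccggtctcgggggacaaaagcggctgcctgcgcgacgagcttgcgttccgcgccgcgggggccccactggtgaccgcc
*Gata2*, second start: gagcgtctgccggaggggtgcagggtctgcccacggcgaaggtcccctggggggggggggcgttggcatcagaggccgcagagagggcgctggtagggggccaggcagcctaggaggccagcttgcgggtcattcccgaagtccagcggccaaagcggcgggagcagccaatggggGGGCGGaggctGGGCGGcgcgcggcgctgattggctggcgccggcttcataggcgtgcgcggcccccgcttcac
*Gata3*: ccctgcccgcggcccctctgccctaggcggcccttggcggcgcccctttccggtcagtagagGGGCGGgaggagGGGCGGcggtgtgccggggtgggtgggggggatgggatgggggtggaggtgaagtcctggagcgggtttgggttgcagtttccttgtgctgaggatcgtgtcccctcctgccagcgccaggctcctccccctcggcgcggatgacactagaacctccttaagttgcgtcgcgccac
*Gata5*: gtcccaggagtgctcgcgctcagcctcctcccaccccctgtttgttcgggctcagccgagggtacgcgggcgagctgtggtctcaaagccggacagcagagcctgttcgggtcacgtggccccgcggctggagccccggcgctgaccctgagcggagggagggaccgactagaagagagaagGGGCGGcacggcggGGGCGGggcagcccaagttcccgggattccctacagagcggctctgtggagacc

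All 6 windows of the 5 matched genes held GGGCGG on one of the strands, as did 32.7% of the 32851 windows of this length in RefSeq. The GATA words AGATAA and TGATAA (in 9.99% and 7.94% of all windows), the cAMP response word TGACGTCA (1.55%), the AP-1 word TGACTCA (4.46%), the TCF/LEF word CTTTGAT (3.21%) and the Sox word ACAATG (10.7%) were searched on both strands and had no match in these 6. The windows printed are rich in G and C, at 67.2% and 74.0% for *Gata2*, 70.0% for *Gata3* and 70.0% for *Gata5*, against a median of 52.4% over all windows. The windows printed, with *Gata5* as the 1 late gene among them, did not differ in which of these words they held.

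*Gata3* (ENSMUSG00000015619, chromosome 2 from 9778705 to 9811661, minus strand) directs T cells and the trophectoderm. The noncoding genes *4930412O13Rik* on the opposite strand and *9230102O04Rik* on the same strand overlap it in the annotation and are in the table, and since it is not stated whether counting used strand, reads of the overlap may be split. *Gata3* had 4089 UMIs in 197 cells. Its mean was 10.5 CPM at d0, 0.550 at d1, 0.523 at d2, 2.23 at d3, 29.8 at d4 and 10.9 at d5. Later it was 8.63 CPM at d6p, 24.5 at d8, 8.99 at d8c, 7.06 at d12, 7.94 at d12c and 0.166 at d20.

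*Gata3* was therefore present in some untreated cells, nearly absent on d1 and d2, highest on d4 and d8 and all but gone at d20. A UMI was found in 23.6% of d0 cells (17 of 72, 14.4% to 35.1%), 5% of d1 cells (2 of 40, 0.611% to 16.9%) and 9.64% of d2 cells (8 of 83, 4.25% to 18.1%). The share was 72.7% at d4 (56 of 77, 61.4% to 82.3%), 59.7% at d8 (37 of 62, 46.5% to 72.0%) and 2.63% at d20 (1 UMI in 1 of 38 cells, 0.0666% to 13.8%). The d4 and d8 intervals overlap one another and lie above that of d0, and the intervals of d1 and d2 overlap that of d0. After thinning, the shares were 8.45% for d0, 39.7% for d4, 32.2% for d8, 6.06% for d12 and 2.78% for the d20 cells.

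The highest d0 cells came near the highest d4 cells. The highest d0 cell held 242.5 CPM and the highest d4 cell 249 CPM, but 8 of 72 cells reached 20 CPM at d0 and 32 of 77 at d4, and the median cell was at 0 at d0 and at 6.63 CPM at d4. Pooled over cells, *Gata3* at d0 was 65.5-fold over d20, with a counting interval of 11.7 to 2595 because d20 held 1 UMI.

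Both number ranges of d4 carried *Gata3*. It was found in 60.0% of cells numbered up to 48 (43.3% to 75.1%, mean 8.37 CPM) and in 86.5% of those above (71.2% to 95.5%, mean 53.0 CPM). Against d0, the difference was 2.10 over all d4 cells, 1.05 with the lower numbers alone and 3.13 with the higher numbers alone, so on the mean log2 scale it stayed past the fold of 1 in both. By mean CPM the lower numbers turned, with 8.37 CPM at d4 against 10.5 CPM in d0 cells of the same range, and 60.0% against 14.0% of cells with a UMI. The d8c cells from colonies held less *Gata3* than the other d8 cells, with a difference of -1.65, while 16% of 9278 measured genes were lower by 1 or more there.

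**Figure D2:**
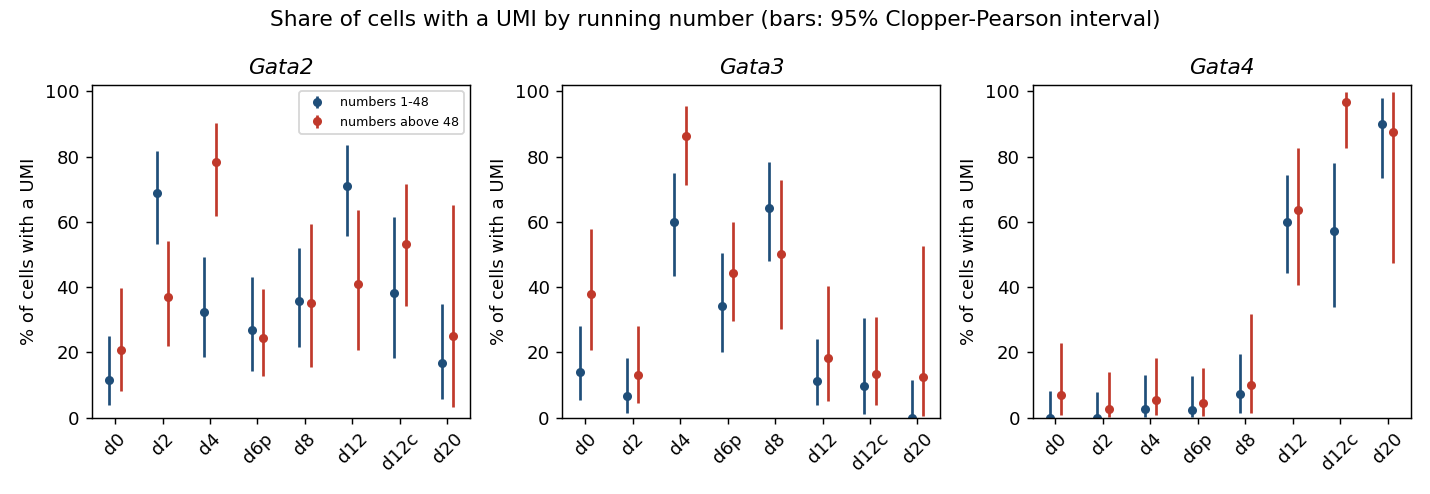
Percent of cells with a UMI of *Gata2*, *Gata3* and *Gata4* on the vertical axis for cells numbered 1 to 48 (blue) and above 48 (red) in 8 groups on the horizontal axis, with 95% Clopper-Pearson intervals as bars. The *Gata2* ranges differ at d2, with intervals that just overlap, and lie apart in the other direction at d4, and the *Gata4* ranges are apart at d12c.

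A gene was called different where its mean log2(CPM + 1) differed by 1 or more, among genes reaching a mean of 1 in either group. A member that passed this filter only through the group in which it is high had to differ, so the counts describe and do not test. Of the 3 members measured between d4 and d0, *Gata2* and *Gata3* were higher, where 20.8% of 9677 measured genes were higher by as much and 7.24% lower, and *Gata6* differed by -0.36. *Gata2* was also higher than at d0 on d2 (1.56), d3 (2.13) and d5 (1.68), where 23.2%, 26.7% and 29.1% of the measured genes were higher, and *Gata3* on d8 (1.35), where 17.1% were. These comparisons share the d0 cells. With cells numbered up to 48 alone, *Gata3* was the 1 member called at d4. Trophoblast markers moved at d4 and also at other times. At d12, 3 of 3 measured markers were higher than at d0, beside 19.8% of all measured genes. At d8, 1 of 2 was higher and 1 lower, beside 17.1% and 13.7%. Of the 10 markers 4 were measured at d4, and *Tfap2c* (2.19), *Ascl2* (1.37) and *Tfap2a* (1.08), transcription factors of the placental lineage, were higher than at d0, while *Krt7* differed by -0.32. The defining markers *Cdx2* and *Elf5* were at 0 in all d4 cells, and the summed trophoblast level ran from 0 to 1163 CPM at d0 (median 1.63) and from 0 to 311 CPM at d4 (median 49.3). The part of such cells in the *Gata2* and *Gata3* levels was not tested.

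*Gata4* (ENSMUSG00000021944, chromosome 14 from 63817759 to 63890529, minus strand) is a pioneer factor of endoderm and heart and a XEN master gene. It had 4355 UMIs in 131 cells. In the groups before d12 at most 5 cells had a UMI. At d0 it had UMIs in 2 of 72 cells, 1 of which held 97.4% of the 38 UMIs at 40.7 CPM, and at d1 in 1 of 40 cells, at 93.4 CPM. It had 0 UMIs at d3, d5 and d8c, which allows shares of up to 7.89%, 8.33% and 15%.

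Rare cells thus had *Gata4* at a high level before d12. At d8, 5 of 62 cells had a UMI and 3 of them reached 20 CPM, at 28.4, 56.5 and 204.7 CPM. These 3 cells had *Col1a1*, the main fibroblast collagen, at 3670 to 4897 CPM, within the range of the other d8 cells. They had 0 UMIs of *Gata3*, *Gata5*, *Gata6*, *Sall4* and *Foxa2*, and 1 of the 3 had *Sox17*, at 0.517 CPM. *Gata4* in these cells was therefore found beside fibroblast genes, at a median depth of 283144 UMIs. In the other 59 d8 cells, at a median of 678225 UMIs, *Gata5* and *Foxa2* were also at 0. Among those cells *Sall4* had a UMI in 17, *Gata6* in 21, *Sox17* in 36 and *Gata3* in 37. The zeros of the 3 shallower cells are therefore not read as a trait of them. A d6p cell also reached 48.9 CPM of *Gata4*, on 2 UMIs.

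At d12, *Gata4* was widespread but at a very low level. A UMI was found in 61.2% of cells (41 of 67, 48.5% to 72.9%), of which 21 held a single UMI. The median cell had 0.868 CPM, which is 0.453% of the mean of the d12c cells numbered 49 to 96, and the highest had 425 CPM. Thinned to 50000 UMIs the share was 7.58% (2.51% to 16.8%), whose interval overlaps that of d0 (1.41%, 0.0357% to 7.60%). The same quantity, a median over a mean, was 0.869% for *Sox17* and 0.283% for *Cited1*, both XEN genes. It was 3.03% for *Gata6*, 3.48% for *Lama1*, 8.44% for *Col4a1* and 220% for *Pdgfra*. *Sox7*, *Sall4*, *Foxa2*, *Cubn* and *Amn* had a median of 0 at d12, while *Col4a1* and *Pdgfra* already had means of 148 and 28.2 CPM at d0. As mean over mean, the value was 9.02% for *Gata4*, 10.9% for *Sox17* and 29.0% for *Gata6*. A share of cells resting on single UMIs is not read as expression in each cell, and the part of free RNA in it was not tested. Only 4 of the 67 cells reached 20 CPM, at 95.7 to 425 CPM, and their *Gata6* ran from 0 to 178 CPM and their *Sox17* from 10.8 to 1582 CPM. These 4 cells had less *Col1a1* (196 to 738 CPM) than the median of 2472 CPM in the other 63.

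In the d12c cells numbered 1 to 24, *Gata4* had a median of 1.27 CPM, near that of d12, but a mean of 37.3 CPM against 17.3 CPM, a thinned share of 23.8% against 7.58%, and 4 of 21 cells at 20 CPM or more against 4 of 67. In the d12c cells numbered 49 to 96 it was found in 29 of 30 cells (96.7%, 82.8% to 99.9%), with a mean of 191 CPM, a median of 175 CPM and 27 cells at 20 CPM or more. At d20 it was found in 34 of 38 cells (89.5%, 75.2% to 97.1%), from 0 to 563 CPM with a mean of 122 CPM and a median of 91.4 CPM, and 29 cells reached 20 CPM. The thinned shares of 92.3% and 80.6% leave both groups far above the d12 cells. Pooled UMIs put d20 at 105-fold over d0 (75.6 to 149), and per spike-in UMI the ratio was 14.95.

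*Gata5* (ENSMUSG00000015627, chromosome 2 from 180059838 to 180069404, minus strand) acts in endoderm and the forming heart. It had 314 UMIs in 45 cells, the fewest of the detected GATA factors by cells. Before d12 it was found in 2 cells, both at d2, of which 1 held 23 of the 24 UMIs at 21.6 CPM. The mean was 0.882 CPM at d12 (10 of 67 cells, 8 with a single UMI), 6.07 at d12c (17 of 51) and 18.6 at d20 (16 of 38, 42.1%, 26.3% to 59.2%). *Gata5* was therefore a late gene found in fewer d20 cells than *Gata4*, and its d20 cells ran from 0 to 119 CPM with a median of 0. Against the 0 UMIs of d0, taken at a floor of 3 UMIs over the group, pooled *Gata5* was at least 183-fold higher at d20, at least 80.8-fold at d12c and at least 12.8-fold at d12, where 1 cell held 44 of the 54 UMIs and the mean without it was 0.179 CPM.

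*Gata6* (ENSMUSG00000005836) drives primitive endoderm formation. An antisense gene, *1010001N08Rik*, overlaps it in the annotation, and reads of the pair cannot be told apart if strand was not used. *Gata6* had 6119 UMIs in 313 cells and was present from the start. Its mean was 9.24 CPM at d0, 9.92 at d1, 7.56 at d2, 13.0 at d3, 3.82 at d4 and 10.9 at d5. It was then 10.9 CPM at d6p, 3.68 at d8, 9.98 at d8c, 21.8 at d12, 59.9 at d12c and 23.6 at d20.

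No early value of *Gata6* separated from d0. Between d0 and d8c the share of cells with a UMI ran from 28.6% at d4 (18.8% to 40.0%) to 51.2% at d6p (40.1% to 62.1%), and the interval of d0 (31.9%, 21.4% to 44.0%) overlaps every one of them, while the intervals of d4 and d6p are just apart. The mean of d4 was 0.413 of that of d0, but without any filter on cells it was 1.82-fold above it, so no direction is read for d4. The share was 74.6% at d12 (50 of 67, 62.5% to 84.5%) and 78.4% at d12c (40 of 51, 64.7% to 88.7%), both above d0, and 47.4% at d20 (18 of 38, 31.0% to 64.2%), which overlaps d0. After thinning the shares were 15.5% at d0, 36.4% at d12, 51.1% in d12c cells and 27.8% in d20 cells, and the d12 interval (24.9% to 49.1%) then just overlaps that of d0 (7.996% to 26.0%).

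The highest *Gata6* levels were in colony cells of d12 rather than at d20. The highest single cell, at 451 CPM, was a d12c cell numbered 1 to 24. The d12c cells numbered 49 to 96 ran from 0 to 322 CPM with a median of 38.0 CPM, and the d20 cells from 0 to 185 CPM with a median of 0. The d20 minus d12c difference for these cells was -2.43, in a comparison in which 10.3% of 8522 measured genes were lower by 1 or more, and *Gata2* (-1.37) and *Gata4* (-1.15) were also called lower. *Gata5* (0.51) and *Zfpm1* (0.46) were not called. Per spike-in UMI, *Gata6* at d20 was 0.341 of its d0 level against 2.56-fold in CPM, and at d12 0.652 against 2.36-fold, so its late direction against d0 rests on the scale.

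**Figure D3:**
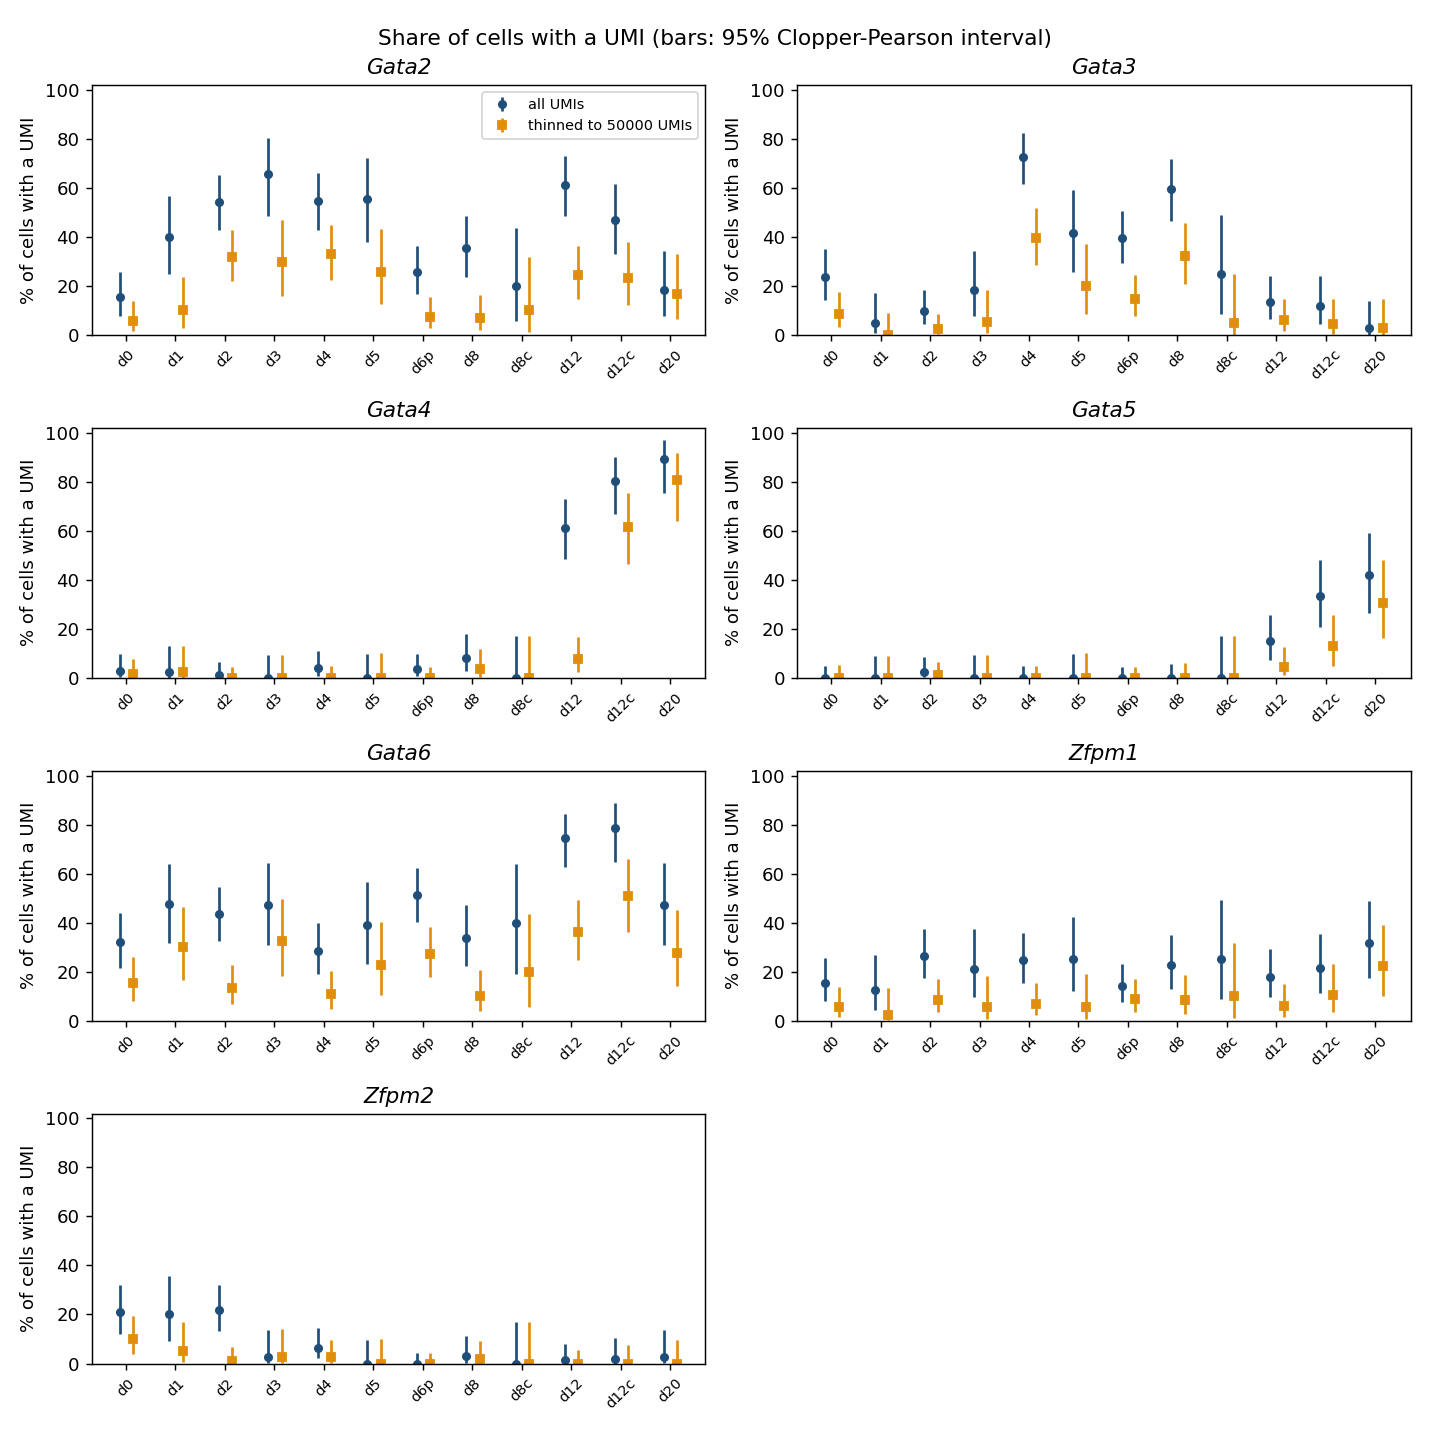
Percent of cells with a UMI of 7 genes on the vertical axis, by group on the horizontal axis, with all UMIs (blue circles) and thinned to 50000 UMIs per cell (orange squares), with 95% Clopper-Pearson intervals as bars. For *Gata4* at d12 the share drops from 61.2% to 7.58% on thinning, and at d20 from 89.5% to 80.6%.

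*Zfpm1* (ENSMUSG00000049577, chromosome 8 from 124806039 to 124861146, plus strand) encodes Fog1, the partner of *Gata1* in red cell and platelet formation. It had 1531 UMIs in 140 cells. Its mean stayed between 1.48 CPM at d1 and 5.59 CPM at d12c before reaching 12.7 CPM at d20. The share of cells with a UMI was 15.3% at d0 (11 of 72, 7.88% to 25.7%) and 31.6% at d20 (12 of 38, 17.5% to 48.7%), and these intervals overlap. Thinned shares were 2.50% to 10.6% before d20 and 22.2% at d20 (10.1% to 39.2%). The d20 cells ran from 0 to 110 CPM with a median of 0, and the difference from d0 was 1.01, just past the fold. It was 0.95 with TMM scaling, 0.75 with no filter on cells and 0.19 in cells of at least 6000 detected genes, so no call is read for *Zfpm1*. Per spike-in UMI the d20 level was 0.507 of that at d0.

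*Zfpm2* (ENSMUSG00000022306, chromosome 15 from 40486588 to 40936138, plus strand) encodes Fog2, the partner of *Gata4* in the heart. It had 351 UMIs in 52 cells, most of them cells of d0 to d2. It was found in 20.8% of d0 cells (15 of 72, 12.2% to 32.0%, mean 2.66 CPM), 20% of d1 cells (8 of 40, mean 3.26 CPM) and 21.7% of d2 cells (18 of 83, mean 0.538 CPM). At d2, 15 of the 18 cells held a single UMI, and the thinned share was 1.22% at d2 against 9.86% at d0. At d4 it had 58 UMIs in 5 cells, with a mean of 2.08 CPM, above that of d2, and a highest cell of 104 CPM. Later it had 0 UMIs in all d5, d6p and d8c cells, 31 UMIs in 2 d8 cells, 1 UMI at d12, 28 UMIs in 1 d12c cell and 2 UMIs in 1 d20 cell. Pooled over cells, d0 was at least 56.6-fold higher than d6p and at least 30.8-fold higher than d5, each at the floor of 3 UMIs, and 12.3-fold over d20 (3.32 to 103). *Zfpm2* was thus rare in the groups where *Gata4* was high, but also at d3 (1 UMI), d5, d6p and d8c, where *Gata4* was at or near 0. Of its 52 cells 4 also had *Gata4*, against 131 of all 670 cells (19.6%). Most of its cells were of d0 to d2, before *Gata4* rose, so nothing is read from this overlap.

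Between d20 and d0, 4 members were measured and all 4 were past the fold in the main setting, *Gata4* by 5.70, *Gata5* by 1.93, *Gata6* by 1.11 and *Zfpm1* by 1.01, although *Gata6* and *Zfpm1* were below d0 per spike-in UMI. As stated above, no call is read for *Zfpm1*. Of 9352 measured genes, 15% were higher by 1 or more and 25.1% lower. With cells numbered up to 48 alone, or with cells of at least 2000 detected genes, 2 members (*Gata4* and *Gata5*) were called. *Gata2*, *Gata3* and *Zfpm2* did not reach the mean level of 1 in either group. Between d12 and d0, *Gata2* (1.37), *Gata6* (1.35) and *Gata4* (1.20) were higher (*Gata4* alone of the 3 also per spike-in UMI, where UMIs are pooled over cells), beside 19.8% of 9611 measured genes higher and 16.3% lower. The same d0 cells enter both comparisons. With cells numbered above 48 alone, the *Gata2* difference at d12 was 0.43.

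Within day 12, the colony cells numbered 49 to 96 differed from the d12 cells in *Gata4* (5.65), *Gata6* (2.19) and *Gata5* (1.17), all higher, in a comparison with 17.3% of 9648 measured genes higher by 1 or more. *Gata2* (0.51) and *Zfpm1* (0.54) were not called. The d12c cells numbered 1 to 24 differed from d12 by 0.77 in *Gata4*, 0.36 in *Gata6* and -0.64 in *Gata2*, none past the fold, beside 11.3% of 9217 measured genes past it in either direction. The median depth was 276240 UMIs in the cells numbered 49 to 96 and 768565 in d12 cells.

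The late factors overlapped in single cells. Over all 670 cells, 89 had both *Gata4* and *Gata6*, 42 *Gata4* alone of the pair and 224 *Gata6* alone. At d20, 17 cells had both, 17 had *Gata4* alone, 1 had *Gata6* alone and 3 had neither. Spearman's rho between their CPM was 0.060 in the 67 d12 cells, 0.28 in the 51 d12c cells and 0.057 in the 38 d20 cells, where cells share library, depth and composition. Of the 45 *Gata5* cells, 35 also had *Gata4*, and 15 of the 16 at d20, with a rho between the pair of 0.42 over all 670 cells, 0.28 in d12c and 0.031 in d20 cells. The rho of *Gata4* and *Gata6* over all cells was 0.25, so both pairs had a higher rho over the whole course than within the d20 cells.

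For *Gata3* and *Gata4*, 18 of the 670 cells had a UMI of each and 0 had both at 20 CPM or more. Cells at that level were few for at least 1 of the pair in each group, with 16 and 3 of 62 at d8, 6 and 4 of 67 at d12, 2 and 31 of 51 at d12c and 0 and 29 of 38 at d20, so nothing is read from the count of 0. Of the 27 d12c cells numbered 49 to 96 with *Gata4* at 20 CPM or more, 2 had a *Gata3* UMI, at up to 5.25 CPM. The other 3 cells of that range held *Gata3* at 0, 92.3 and 287.5 CPM. These 3 cells had *Gata6* at 20.5 to 322 CPM, *Sox17* at 4.80 to 20.5 CPM against 82.3 to 1803 CPM in the 27, and *Foxa2* at 2.40 to 114 CPM. *Gata2* and *Gata3* shared 33 of the 77 d4 cells, 11 with both at 20 CPM or more, and their rho there was 0.27, with both genes more frequent in the d4 cells numbered above 48 (78.4% and 86.5%).

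**Figure D4:**
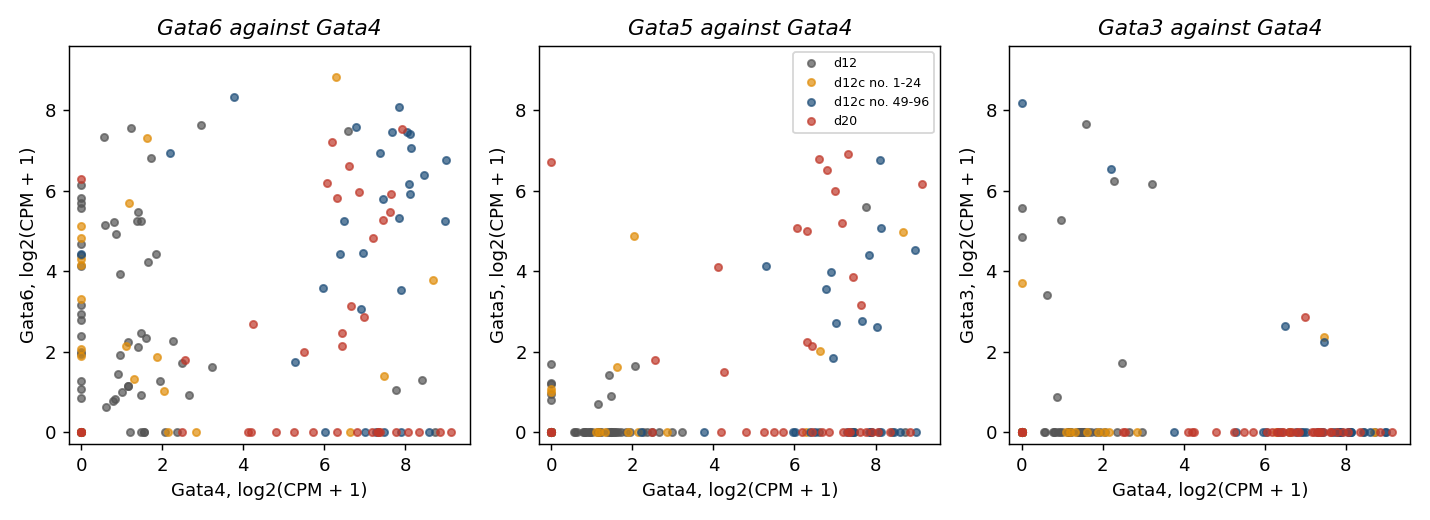
*Gata6*, *Gata5* and *Gata3* on the vertical axes against *Gata4* on the horizontal axis, as log2(CPM + 1), in cells of d12 (grey), d12c numbered 1 to 24 (orange), d12c numbered 49 to 96 (blue) and d20 (red), 1 point per cell. *Gata6* is spread over cells with and without *Gata4*, *Gata5* above 2 sits mostly at high *Gata4*, and no cell lies high on both *Gata3* and *Gata4*.

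The other genes of the GATA pathway were read from lists. Of 21 endoderm genes known downstream of *Gata4* or *Gata6*, 16 were measured between d20 and d0, 14 were higher and 1 lower. Over all measured genes 15% were higher and 25.1% lower. The median difference was 2.93 in the list against -0.20 over all measured genes. The largest was *Sox17* (9.57), an endoderm transcription factor with 982 CPM at d20, and the smallest *Dab2* (-1.48), an endocytic adaptor with a mean of 55.1 CPM in 62 of 72 d0 cells and 56.5 CPM in 22 of 38 d20 cells. *Hnf4a*, *Amn*, *Afp*, *Ttr* and *Apoa1*, most of them genes of visceral endoderm, were not measured, with *Apoa1* and *Afp* at 0 in all d20 cells. Between d12 and d0 the list had 6 higher and 1 lower of 10 measured, beside 19.8% and 16.3% of all measured genes. Between d4 and d0 it had 2 higher and 4 lower of 9, beside 20.8% and 7.24%.

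Of 15 transcription regulators that partner with GATA proteins, 10 were measured at d20, 1 was higher and 3 lower than at d0 (median -0.63), near the 15% higher and 25.1% lower over all measured genes. *Lmo2*, a LIM adaptor that joins GATA factors to Ldb1, was the one higher (2.38), at 30.2 CPM in 18 of 38 d20 cells and at 0 in all 72 d0 cells. *Smad1*, a BMP signal transducer, was the lowest (-1.67). *Ldb1* itself was higher by 1.12 at d4 but differed by 0.70 at d20. The blood partners *Tal1* and *Spi1* and the heart partner *Nkx2-5* were at 0 in d0 and d20 cells.

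Transcripts of the Fog partner complexes were measured in every comparison. All 12 listed subunits of NuRD and CtBP were measured between d20 and d0, with 1 higher, *Rbbp7* (1.42), a histone binding subunit at 979 CPM at d20, and 4 lower, the lowest being *Mbd3* (-2.60), the NuRD scaffold, at 40.1 CPM. Over all measured genes 15% were higher and 25.1% lower, and the median was -0.55 in the list against -0.20 over all. *Hdac1* and *Hdac2*, the deacetylases of the complex, were the 2 of 12 higher at d4, by 1.11 and 1.39, beside 20.8% of all measured genes. At d20 they differed by 0.74 and -1.83. Of 9 further genes with a GATA-type zinc finger 8 were measured at d20, 0 were higher and 1 was lower, beside 15% and 25.1% of all measured genes. The lower gene was *Gatad1* (-2.35), while *Gatad2a* had the largest difference (0.95). *Gatad2a*, *Gatad2b*, *Mta1* and *Mta2* stand in both lists.

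Blood, endothelial and cardiac markers were mostly not measured at d20, while some trophoblast markers were. Of 12 blood markers 1 was measured and not called (*Runx1*, in 24 of 38 cells at 37.5 CPM), of 6 endothelial markers 0 were measured, and of 8 cardiac muscle markers 3 were measured, of which *Tnnt2* and *Actc1* were lower, with *Nkx2-5* and *Nppa* at 0 in d0 and d20 cells. Trophoblast markers had 2 of 3 measured genes higher at d20, *Esx1* (5.01, at 79.3 CPM) and *Cdx2* (1.12, in 8 of 38 cells), with *Elf5*, *Hand1*, *Ascl2* and *Prl3d1* at 0 and a summed level of 0 to 342 CPM (median 92.5). The part of such cells in the d20 levels was not tested. At d12, *Kdr*, the receptor of endothelial VEGF signalling, and *Runx1* were higher than at d0 by 2.29 and 2.85. For comparison, 12 of 12 fibroblast markers were lower and 9 of 10 measured XEN markers higher at d20. Of all measured genes, 25.1% were lower and 15% higher at d20.

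For the 6 members reaching 5 CPM in some group, the genes with the most similar mean levels over the 12 groups were searched among 10382 genes reaching 10 CPM in some group, by Pearson's r of log2(mean CPM + 1). For *Gata2* they were *Med25* (0.91), *Mllt3* (0.88) and *Suv39h1* (0.87), and for *Gata3* they were *Ptchd4* (0.91), *Zdhhc9* (0.90) and *Fyn* (0.88). *Arhgap8* (0.98), *Slc44a4* (0.97) and *Kcne3* (0.97) followed *Gata4*. *Gata5* had the closest matches, *Pgc* (0.997), *1700001C02Rik* (0.996) and *Gulo* (0.996), all genes near 0 until d12. *Gata6* was nearest to *2010204K13Rik* (0.91), *Epop* (0.90) and *Ifi30* (0.88), and *Zfpm1* to *Wnk4* (0.94), *Stxbp2* (0.92) and *Xbp1* (0.92). With 12 groups and so many genes searched, these values describe likeness only.

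Most cells carried few members. At d0, 27 of 72 cells had none of the 8 detected and 23 had 1. At d12c, 2 of 51 cells had none, 15 had 4 and 2 had 5, with a median of 3 members, and at d20 the median was 2. The numbers move with depth and were not thinned.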

How the data were processed

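Single-cell RNA-seq counts came from 1 table of 808 cells. Per the study's methods, the authors assigned reads to cells by their barcodes and, after trimming, mapped these to the mouse transcriptome of mm9 and collapsed duplicates by UMI, and the deposited counts are UMIs per gene. The aligner and the use of strand are not given in the sources used here. The 92 ERCC rows and 4 duplicated entries were left out. Cells that had 4000 or more genes with a UMI were used and scaled to CPM, with a pseudocount of 1 on the log2 scale. Day 0 to day 20 groups are the first part of each cell name, and the 10 listed samples are batches to which no cell could be assigned. The members and gene lists were chosen with earlier results of these data known. Named genes were the members, the largest and smallest difference of each list, and the 3 genes most like each member by Pearson's r, beside genes that a count of 5 or fewer or a marker statement required, which were chosen after their values were seen. The calling of differences was tested on simulated counts of d20 and d0, where it recovered 96 of 100 genes changed 4-fold and 100 of 100 changed 16-fold, and called 375 of 10229 unchanged genes. The changed genes all had a d0 mean of at least 5 CPM, and every gene was given the same spread between cells. *Gata1*, *Gata2*, *Gata4*, *Gata5*, *Zfpm1* and *Zfpm2* lay below that level at d0, so the recovery is not read for them. Doublets were not called, since cells were picked by hand. Analyses used Python 3.11.15, numpy 2.4.6, pandas 2.3.3 and scipy 1.17.1, with scaling alternatives from edgeR 4.0.16 and DESeq2 1.42.0 in R 4.3.3.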

Additional observations from a re-analysis of the deposited data

Results flagged for a closer look

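*Gata4* appeared in cells that the filter removed. Of the 34 d20 cells with under 4000 detected genes, 15 had a *Gata4* UMI (44.1%, exact interval 27.2% to 62.1%), with 244 UMIs in all at a median depth of 60536 UMIs. The 12 removed d0 cells had 0 cells with *Gata4*, which at 3 cells of 12 allows a share of up to 25%, at a median depth of 23285.5 UMIs. The share in removed d20 cells is thus above this limit, in cells that enter the report only where another filter on cells is named. *Gata5* had UMIs in 6 of the same 34 cells (17.6%, 6.76% to 34.5%), which is within that limit.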

How the results depend on the processing

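No paired analysis was possible because the groups carry no replicates and cells are not tied to samples, so no replicate could be left out. Per ERCC UMI the ratio over d0 turned for *Gata2* (0.546 at d12, 0.422 at d12c, 0.236 at d20), *Gata6* (0.652 at d12, 0.341 at d20) and *Zfpm1* (0.265, 0.393 and 0.507 at d12, d12c and d20). Gene UMIs per ERCC UMI were lower at these times. These ratios also pool UMIs over cells, while the main ratios are of means over cells. For *Gata2*, 1 cell held 75% of the pooled d0 UMIs, so the pooling lowered its ratios too. *Gata6* at d4 over d0 turned to 1.82 with no filter on cells and 1.73 at 2000 detected genes, the cause of which was not tested. Of the member differences recomputed under each setting, 112 stayed close to the main value and 32 moved further from it, with no call lost among these. The others were 29 that fell below the threshold and 2 that came past it.

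Counts of genes moved mainly with the pseudocount and the threshold. For d4 minus d0, 2014 genes were higher (3557 with a pseudocount of 0.1, 454 with 10, 348 at a difference of 2) and 701 lower (290 with 10, 1503 on the log2 of the mean, 162 at 2). The 2 members higher became 0 with a pseudocount of 10 and 1 at a difference of 2, and 1 was lower on the log2 of the mean. For d12 minus d0, 1901 were higher (2942 with 0.1, 740 with 10, 693 at 2) and 1564 lower (641 with 10, 2522 on the log2 of the mean, 403 at 2), and the 3 members higher became 0 with 10 and at 2, with 1 lower on the log2 of the mean. For d20 minus d0, 1403 were higher (645 with 10, 662 with no filter on cells, 826 at 2000 genes, 2166 at 6000, 3062 on the log2 of the mean, 410 at 2) and 2350 lower (3663 with 0.1, 762 with 10, 834 at 2). The 4 members higher became 1 with 10 and at 2, and 2 with no filter on cells or 2000 genes, and 1 was lower at 6000 genes and 2 on the log2 of the mean. For the d12c cells numbered 49 to 96 minus d12, 1673 were higher (858 with 10, 704 with no filter on cells, 3139 on the log2 of the mean, 541 at 2) and 3111 lower (1179 with 10, 1369 at 2). Splitting cells by running number was chosen after seeing the data: numbers up to 48 gave 1 member higher at d4 and 2 at d20, and numbers above 48 gave 1 member lower at d20. Depth limits the shares of cells with a UMI, most of all at d20, which had the lowest median depth (195480 UMIs).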
